A study of Mus musculus with 8 samples.

Results

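The intergenic ASH2L sites without AP-1 motif were 766 of the 6444 sites that the authors compiled over all libraries. A site was taken when its centre was more than 3 kb from every annotated transcription start site (TSS) and outside every gene body, when it overlapped no CpG island, and when the central 200 bp held neither TGACTCA nor TGAGTCA, the consensus bound by the FOS and JUN proteins of the AP-1 family. Chromosome 15 and the stretch of chromosome 10 from 100 to 130 Mb were left out by the same rule. None of these criteria used a measured signal. The site list came from chromatin immunoprecipitation and sequencing (ChIP-seq) of iMEF cells, mouse embryo fibroblasts that were immortalised in culture. All libraries were from cells that expressed human ASH2L with 2 HA tags and an FKBP-F36V degradation domain (FKBP-HA2-ASH2L), with exon 4 of both endogenous Ash2l alleles removed by an inducible Cre-ER recombinase, and the cells were selected clones. The 8 libraries formed 4 groups of 2, namely anti-HA precipitates and inputs without dTAG and with dTAG for 1 h, a compound that brings the FKBP domain to a ubiquitin ligase. The list gave positions without a value per library, so no site had a replicate error or a known depth, and the effect of dTAG at these sites was not analysed here. Sites are not replicates, and the p-values below describe the list.

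ASH2L belongs to the WRAD core that the KMT2 methyltransferases need to methylate lysine 4 of histone H3. The trimethylated form marks active promoters, whereas the monomethylated form marks enhancers, many of which lie between genes. In fibroblasts AP-1 is a common resident of enhancers, so sites without its consensus raise the question of which other sequences they share. TEAD factors, the DNA-binding partners of YAP and TAZ, RUNX factors and the zinc finger repressors ZEB1 and ZEB2 are other factors known from mesenchymal enhancers.

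Of the 1133 sites that were distal to every TSS and outside gene bodies, 81 overlapped a CpG island, 122 of the remainder held the AP-1 consensus, and 96 and 68 more lay in the excluded chromosome 15 and chromosome 10 stretch. The members were compared with 801 distal intronic sites without AP-1, 211 distal sites with AP-1 and 3154 promoter sites within 1 kb of a TSS, all under the same chromosome exclusions. The members' median distance to a TSS of any gene type was 20837 bp (quartiles 10340 and 46543), against 12893 bp for the distal intronic sites. In all, 185 members (24.2%) lay 3 to 10 kb from a TSS, 527 (68.8%) between 10 and 100 kb and 54 (7.05%) beyond 100 kb. The members just over the distance limit were at 3030, 3064 and 3170 bp, and the sites just under it that met every other criterion were at 2997, 2978 and 2940 bp.

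Sequences of the members are shown here because short words differed between the site centres and their surroundings. They were read from the GRCm38.p6 (mm10) reference, 5′ to 3′, and each is a stretch of 120 bases within the central 200 bp of the site. In the first set the capitals mark GGAATG or its reverse complement, the core letters of TEAD sites. They are from the 3 widest members that held the word outside a tandem repeat.

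chr17:79836179-79836298 (+ strand, nearest Atl2): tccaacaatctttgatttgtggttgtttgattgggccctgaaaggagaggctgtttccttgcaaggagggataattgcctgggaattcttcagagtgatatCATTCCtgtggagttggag

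chr10:78722234-78722353 (+ strand, nearest Casp14): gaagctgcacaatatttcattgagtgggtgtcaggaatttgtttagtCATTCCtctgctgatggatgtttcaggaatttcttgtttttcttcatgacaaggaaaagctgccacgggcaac

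chr6:71990118-71990237 (+ strand, nearest Polr1a): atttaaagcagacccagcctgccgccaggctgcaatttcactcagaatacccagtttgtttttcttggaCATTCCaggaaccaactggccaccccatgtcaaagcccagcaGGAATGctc

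In the second set the capitals mark at least 2 adjacent copies of the unit GGAAT, read on either strand. This unit is also that of human satellites II and III. The widest members of this kind are shown.

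chr17:4626342-4626461 (+ strand, nearest Arid1b): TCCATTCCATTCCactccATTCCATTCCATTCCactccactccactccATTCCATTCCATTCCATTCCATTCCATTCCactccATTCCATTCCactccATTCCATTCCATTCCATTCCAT

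chr9:62608571-62608690 (+ strand, nearest Itga11): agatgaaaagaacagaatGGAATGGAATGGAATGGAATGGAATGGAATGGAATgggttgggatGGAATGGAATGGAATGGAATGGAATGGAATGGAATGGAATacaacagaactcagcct

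Besides these, 3 words are followed below, CCAGCTACT, GGGATTACA and GGAGGCTGA, each read on both strands. These letters occur in Alu elements, the short interspersed elements (SINEs) of primates that descend from the 7SL RNA gene, as do the B1 elements of rodents, and they are called Alu-type words below.

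The width of a site is the one property that came from the peak caller. The members had a median width of 223 bp (quartiles 200 and 342.8, maximum 694), and 272 of 766 (35.5%, 95% Wilson interval 32.2 to 39.0) were at the minimum of 200 bp. This share was 35.1% in distal intronic sites (281 of 801, adjusted p = 0.874, Fisher's exact test, two-sided, adjusted over 11 class comparisons) and 33.6% in sites with AP-1 (adjusted p = 0.752). Promoter sites were at the minimum in 9.96% (314 of 3154, adjusted p = 4.92e-59, Fisher's exact test). No difference from the other distal sites was thus detected in this share, whereas members were at the minimum more often than promoter sites.

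**Figure D1:**
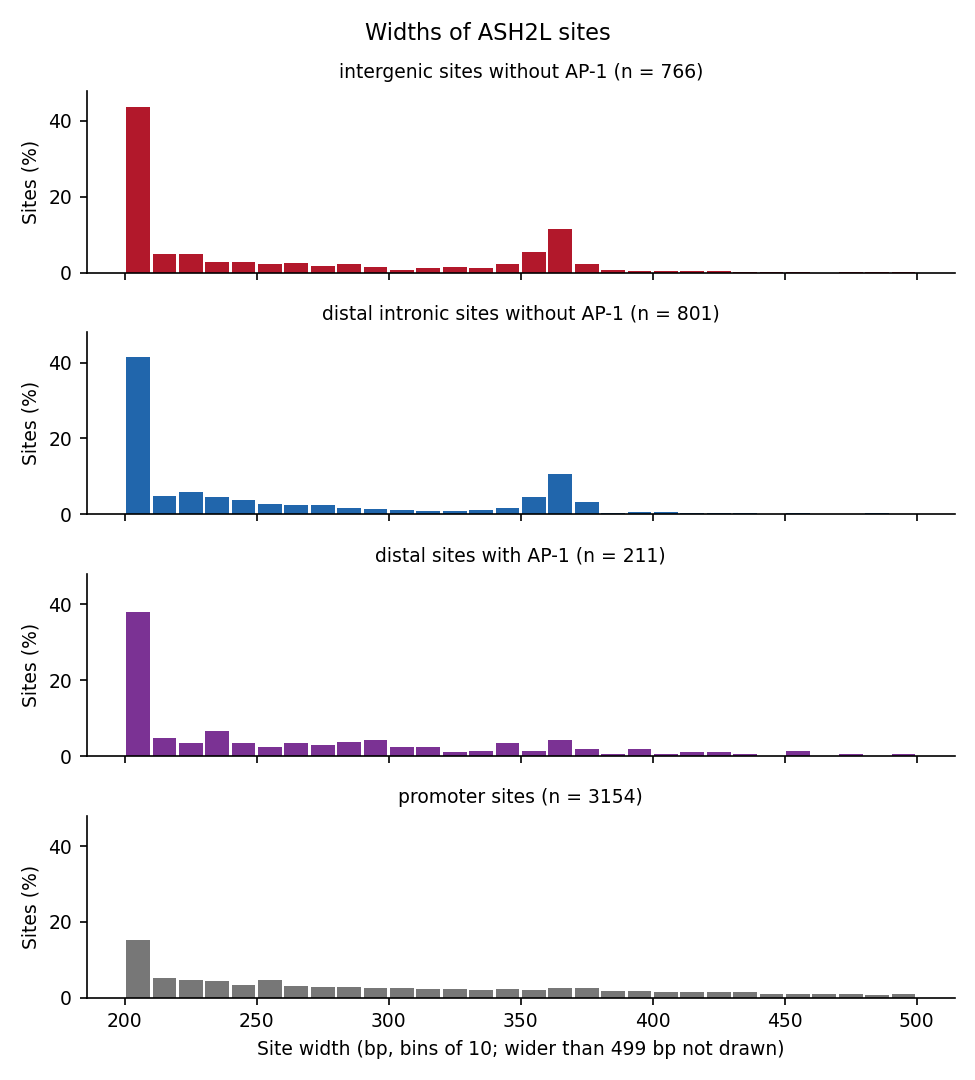
Share of sites (percent) by site width in 10-bp bins for 4 classes of ASH2L sites. The 766 intergenic members and the 801 distal intronic sites had a first peak at the minimum of 200 bp and another between 350 and 379 bp, which held 18.9% and 18.4% of them.

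The widths of the members had a second peak. The 30-bp range from 350 to 379 bp held 145 members (18.9%), while the 40-bp range before 340 bp held 36 (4.70%) and the 20-bp range after 379 bp held 8 (1.04%). Distal intronic sites showed the same shape, with 147 of 801 (18.4%) from 350 to 379 bp. The share there was 7.58% in sites with AP-1 (16 of 211) and 7.17% in promoter sites (226 of 3154). This range was noticed after the widths had been seen, and no test was applied to it.

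The 5 widest members were far from one another. The widest, chr17:4626053-4626746 (694 bp), was nearest to Arid1b, a subunit of the BAF chromatin remodelling complex, at 367932 bp, and was built of the GGAAT repeat, with 29 overlapping GGAATG words in its centre. The second, chr2:74664393-74665085 (693 bp), was 3571 bp upstream of Hoxd13, a homeobox gene of the distal limb, and had another ASH2L site 635 bp away. The remaining 3 were chr1:57234057-57234680 (624 bp), chr10:44877155-44877768 (614 bp) near Prep and chr13:31468220-31468811 (592 bp) near the forkhead gene Foxq1. Except for the first, none of them held GGAATG in the central 200 bp, and all 4 were single-copy throughout.

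The members stood more often alone than distal intronic sites. Another ASH2L site within 10 kb was present for 48 of 766 members (6.27%, interval 4.76 to 8.21) and for 109 of 801 distal intronic sites (13.6%, odds ratio 0.424, adjusted p = 4.71e-06, Fisher's exact test). The share was 10.4% in sites with AP-1 (22 of 211, adjusted p = 0.0709) and 33.7% in promoter sites (1062 of 3154, adjusted p = 3.97e-62, same exact test). The median distance from a member to the next site was 171089 bp, and that of distal intronic sites was 108962 bp. The members also lay farther from TSSs, and among sites more than 10 kb from every TSS the odds ratio was 0.566 with an adjusted p of 0.0916.

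When members were assigned in turn to the stretch of up to 100 kb with the most members, 679 stayed single, 37 stretches held 2, 3 held 3 and 1 held 4. The stretch with 4 was chr5:15023347-15043950, 20604 bp long, beside the predicted gene Gm17019, with widths of 200, 205, 247 and 261 bp. At chr2:74662831-74671829, within 8999 bp, 3 members of 289, 693 and 225 bp were nearest to Evx2, Hoxd13 and Hoxd12 at the HoxD cluster. The stretch at chr12:86834362-86899934 held 3 members nearest to Irf2bpl, and that at chrX:99192063-99265392 held 3 nearest to Efnb1, which encodes the ligand ephrin-B1.

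The nearest protein-coding gene had an ASH2L site at its own promoter (within 1 kb of a TSS) for 164 of 766 members (21.4%, interval 18.6 to 24.4). The share was 26.2% for distal intronic sites (210 of 801, odds ratio 0.767) and 27.96% for sites with AP-1 (59 of 211). Neither difference passed the threshold (adjusted p = 0.0518 and 0.0709, Fisher's exact test). With sites up to 3 kb from a TSS counted as promoter sites, the odds ratio against distal intronic sites was 0.677 and the adjusted p 0.00189. Among sites more than 10 kb from every TSS it was 0.940, with an adjusted p of 0.871. Of the members, 466 (60.8%) were upstream of the nearest protein-coding TSS. The median distance to it was 54532 bp. The rule left out gene bodies, which lie downstream of their TSS, so the upstream share was partly set by the selection.

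The 766 members were nearest to 704 different protein-coding genes, of which 651 had 1 member, 45 had 2, 7 had 3 and 1 had 4. Gm17019 had 4. The genes with 3 were Efnb1, Rgma (a co-receptor of bone morphogenetic proteins), Slc35b3 (a nucleotide sulphate transporter of the Golgi), Tmpo (a lamina-associated protein of the nuclear envelope), Irf2bpl, Diaph3 (a formin that nucleates actin) and Kif2a (a kinesin that depolymerises microtubules). Next by summed width were Ccdc80, a secreted matrix protein gene, and Sulf1, which encodes a heparan sulphate sulphatase, with 2 each. Of these 10 genes, Tmpo, Irf2bpl and Sulf1 had a promoter site. The 3 members near Efnb1 lay 54112 to 127113 bp from its TSS, and those near Diaph3 150342 to 1123906 bp, so nearness is a label here and not an assignment of a target.

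None of 8 gene lists (0%) differed between the members' and the distal intronic sites' nearest genes after adjustment, and 2 had an unadjusted p under 0.05. Under some alternatives the mesenchymal or the olfactory list did pass, as given with the processing. Mesenchymal and limb transcription factors were nearest to 18 members (2.35%) and 38 distal intronic sites (4.74%, odds ratio 0.483, adjusted p = 0.0747, Fisher's exact test). The share among eligible intergenic windows of the genome was 2.06%. Irx3 had 2 of these members, and Twist1, Twist2, Zeb1, Tbx18 and Foxc1, which are regulators of mesenchyme or organ formation, had 1 each. Olfactory, vomeronasal and taste receptor genes were nearest to 8 members (1.04%) and to 1 distal intronic site (adjusted p = 0.0747, Fisher's exact test), with 2.41% among genome windows.

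Ligands and their inhibitors were nearest to 13 members (1.697%, against 0.874% of distal intronic sites, adjusted p = 0.357, Fisher's exact test). Ccn1, which encodes a secreted matricellular protein, had 2, at chr3:145684765-145684980 (34892 bp upstream) and chr3:145690871-145691249 (41079 bp upstream). Both held GGAATG, the second as part of the GGAAT tandem. Cxcl12, a chemokine of stromal cells, also had 2, and neither held the word. Extracellular matrix genes were nearest to 8 members (1.04%, against 1.75%, adjusted p = 0.381, same exact test). Col1a2, which encodes a chain of type I collagen, had 2 of them, 14648 and 15210 bp upstream, and its promoter carried a site. Actin and focal adhesion genes had 4 members (0.522%, against 0.999%, adjusted p = 0.443, same exact test), near Ankrd1, Amotl2, Itga11 and Vcl. Of these the member near Ankrd1 held GGAATG, and the member near Itga11 held it within the GGAAT tandem. The members near Amotl2 and Vcl did not hold it. Cadherins and synaptic adhesion genes had 12 members (1.57%, against 2.37%, adjusted p = 0.381, same exact test), which compares with 5.64% of genome windows. The AP-1 factor list had 2 members (0.261%), both near Maf (adjusted p = 0.617), and cytosolic ribosomal protein genes had 4 members (0.522%) and no distal intronic site (adjusted p = 0.152, same exact test). Genome windows had lower shares for the other lists of this paragraph, without a test. These were 0.980% for ligands, 0.820% for matrix, 0.2535% for actin, 0.103% for AP-1 factor and 0.259% for ribosomal protein genes.

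Of the 766 members, 4 (0.522%) overlapped an enhancer of the RefSeq annotation, which lists 1019 on the assembled chromosomes, as did 0.499% of distal intronic sites. All 4 enhancers are elements of the VISTA collection, in which sequences are tested as enhancers in mouse embryos. They were mm1046 near Slc4a3 (member chr1:75883521-75883889), mm673 near Prex1 (chr2:166441826-166442092), mm1725 near Klf3 (chr5:64878270-64878667) and mm1722 near Polr1a (chr6:71989927-71990349). The member near Polr1a is among the sequences shown above and held GGAATG at 2 positions, 1 on each strand.

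The centres of the members were richer in G and C than their surroundings. The median GC content of the central 200 bp was 45.5%, and the median of the flanking windows centred 1 kb on either side was 42.9%. The centre was higher in 454 members, lower in 302 and tied in 10, so that 60.1% of the untied ones were higher (p = 3.59e-08, exact binomial sign test, two-sided), with a mean difference of 1.76 ± 7.03 percentage points (SD over 766 sites). The mean GC content at the centre was 44.6%, while in 30 other windows up to 3 kb away it ranged from 42.2% to 43.3%. The other distal classes showed such a rise too. Distal intronic sites had 45.09% at the centre and 42.4% to 43.5% elsewhere, and sites with AP-1 had 46.55% and 42.5% to 44.3%. The eligible windows of the genome, defined by the criteria for members and sampled at 1 in 10, had a median of 40%.

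**Figure D2:**
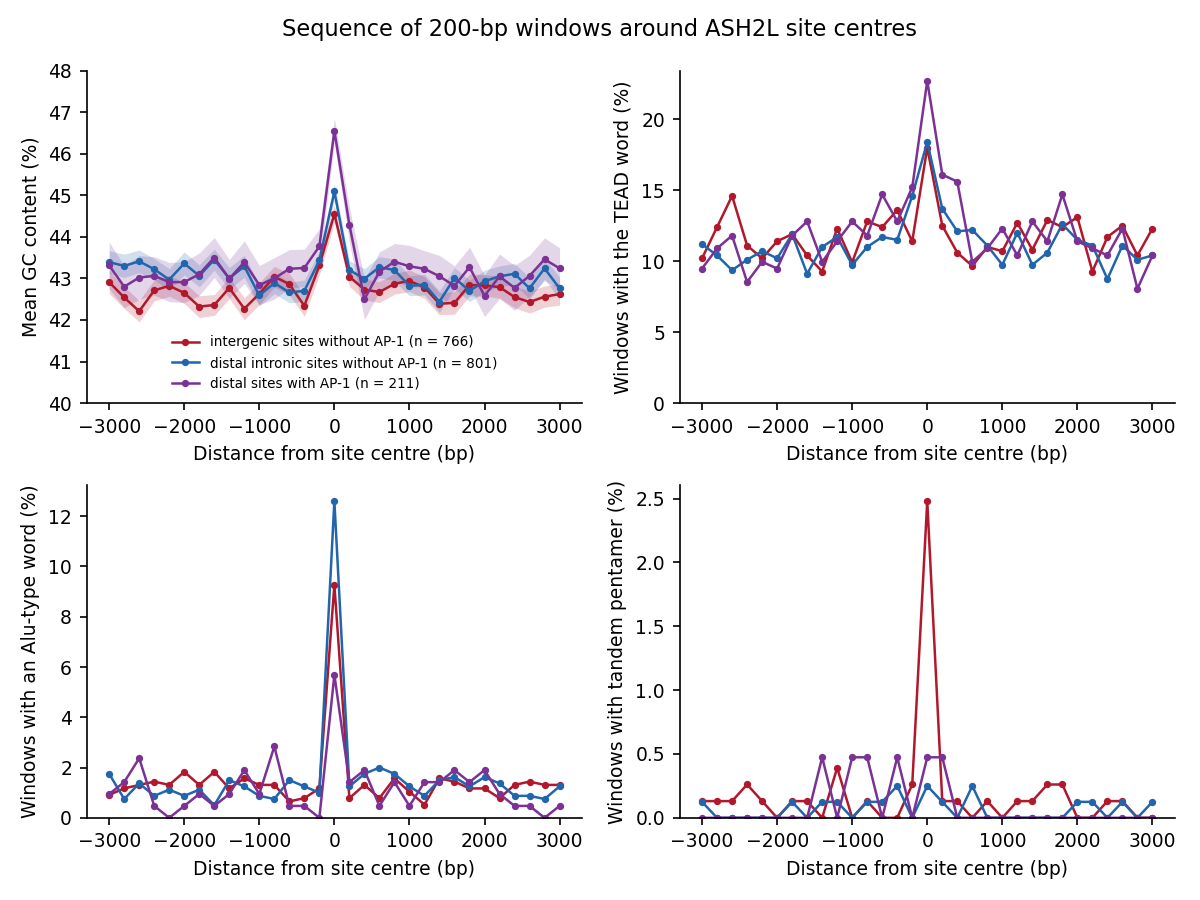
Sequence of 200-bp windows (percent) against the distance of the window from the site centre (bp) for 3 classes of distal ASH2L sites, with the shaded band showing the standard error of the mean GC content over sites. In the 766 intergenic members the TEAD word reached 18.02% at the centre and 9.27% to 14.6% in the 30 other windows, and the Alu-type words and the tandem pentamer were raised in the central window and not in its neighbours.

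The known motif that was more frequent at the members' centres was the TEAD word. Of 41 motifs tested against the window 1 kb to the right, 1 (2.44%) was called, and 5 had an unadjusted p under 0.05. The BACH/NRF2 letters among the 41 contain the AP-1 consensus. The rule thus kept them out of every centre, and their test could not show a higher share there. GGAATG, read on both strands, was present in the central 200 bp of 138 members (18.02%, interval 15.5 to 20.9) and in the flank of 82 (10.7%). It was in the centre alone in 122 members and in the flank alone in 66 (adjusted p = 0.00220, exact McNemar test, two-sided). The window to the left held it in 9.92%, and the eligible genome windows in 10.99%. No difference was detected from the distal intronic sites, of which 18.4% held it (adjusted p = 1.00, Fisher's exact test), and sites with AP-1 held the word in 22.7%.

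All 19 members with the GGAAT tandem also held GGAATG, because adjacent units contain these letters. Without them 119 members held the word, the share of discordant members with it in the centre was 61.8% instead of 64.9%, and the adjusted p was 0.0900 (exact McNemar test). The call was also lost among the 581 members more than 10 kb from every TSS, where that share was 62.4% (adjusted p = 0.165, exact McNemar test), and against windows at 2 kb, where it was 59.9% (adjusted p = 0.101, same exact test).

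Other motifs at the centre did not pass the test. Letters 1 base away from the AP-1 consensus were present in 53.5% of the centres and 46.5% of the right flanks (adjusted p = 0.136, exact McNemar test). The RUNX letters TGTGGT were present in 19.5% and 15.1% (adjusted p = 0.244, same exact test), with 13.2% of genome windows. The YY1 letters AAGATGGC were in 2 centres and 12 right flanks (adjusted p = 0.177, same exact test). Against the left flank, 6 motifs were called, namely TEAD, the AP-1 letters with 1 mismatch, RUNX, YY1, ZEB (CAGGTG, 109 against 72 members) and the E-box CAGCTG (72 against 41). No member held the consensus of CTCF, REST, NRF1, EGR or ZBTB33, or the CRE TGACGTCA, in its central 200 bp, and 0 of 766 allows a share of up to 0.392%. These shares in genome windows were themselves below 0.1% for all of the 6 motifs.

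Between the members and the distal intronic sites none of 41 motifs (0%) was called, and 2 had an unadjusted p under 0.05. The BACH/NRF2 letters among the 41 were absent from both classes by the rule, and those of EGR, ZBTB33 and REST occurred in neither. The SOX letters ACAATG were in 14.4% of members and 9.86% of distal intronic sites, and the ZEB letters in 14.2% and 9.99% (adjusted p = 0.214 for both, Fisher's exact test). The SOX share in genome windows was 13.6%.

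**Figure D3:**
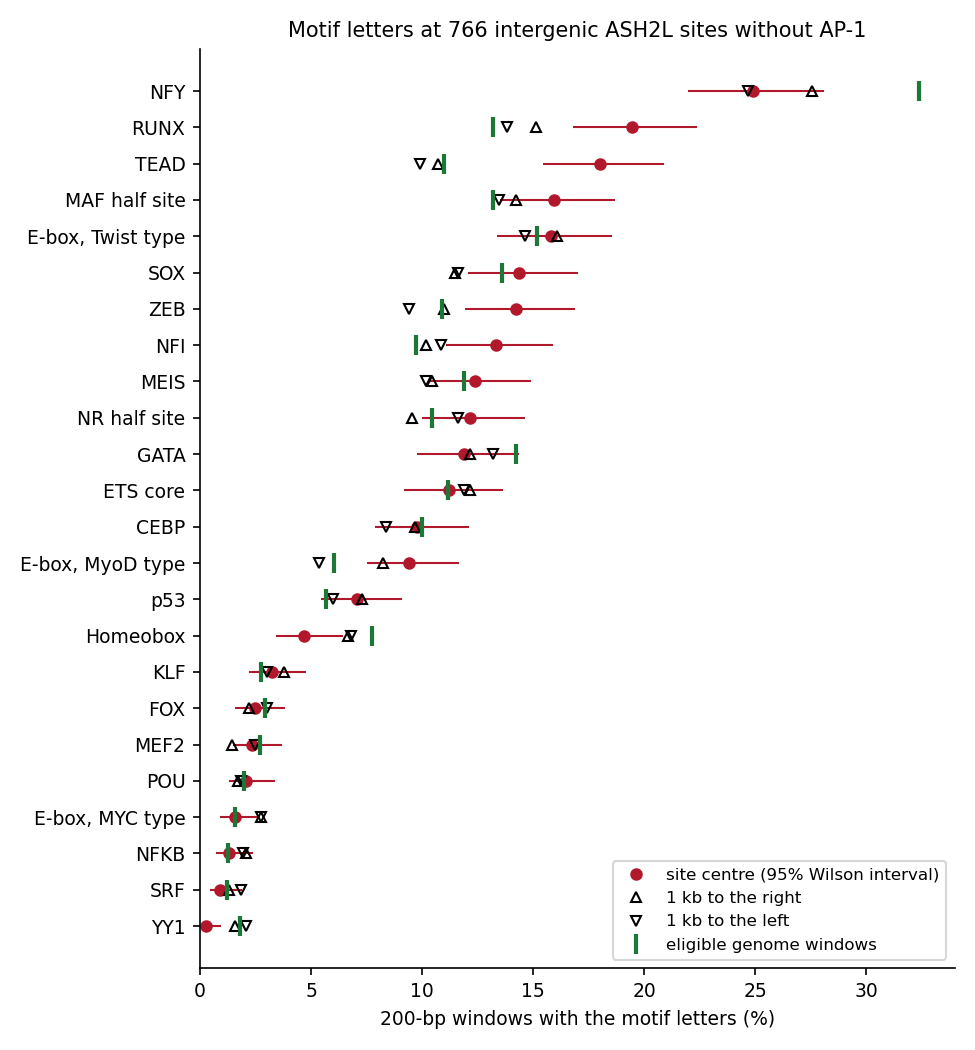
Share of 200-bp windows (percent) with the letters of each motif at the centres of the 766 members (points with 95% Wilson intervals), 1 kb to the right and to the left of them, and in the eligible genome windows, for motifs with a genome share over 1%. TEAD stood at 18.02% in the centre and at 10.7%, 9.92% and 10.99% elsewhere, and NFY was at 24.9% in the centre, 27.5% and 24.7% in the right and left flanks and 32.4% in genome windows.

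A scan of all 7-base words showed which letters were more frequent at the centre without a choice of motifs. Of 8191 words, 17 (0.208%) were called against the right flank, all 17 with more members at the centre, and 398 had an unadjusted p under 0.05. The first was CCAGCTA, in 61 centres (7.96%) and 13 flanks (adjusted p = 1.14e-04, exact McNemar test). AGCTACT followed with 52 against 14, and CTGCCTC with 111 against 54. The TEAD-type word ACATTCC was in 57 centres and 21 right flanks (adjusted p = 0.0231, same exact test), and with 27 left flanks it did not pass on that side (adjusted p = 0.170, same exact test). Against the left flank 10 of the 17 were called too. Of the 801 distal intronic sites, 65 held CCAGCTA at the centre, 60 AGCTACT, 123 CTGCCTC and 61 ACATTCC, so these words were not particular to the members. The 7SL RNA gene Rn7s6 held 5 of the 17, against 3.37% of all words tested. In the reference, 85.5% of the occurrences of GGGATTA and 50.8% of those of CCAGCTA were in lower case, which marks interspersed repeats and low-complexity sequence, and 14.8% of those of ACATTCC.

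The 3 Alu-type words were put together from the called words after the scan, so they are given as counts without a test. At least 1 of them was present in the central 200 bp of 71 members (9.27%), in 8 right and 10 left flanks, and in 1.06% of genome windows. CCAGCTACT alone was in 23 centres, in no right flank and in 2 left flanks. In 30 other windows up to 3 kb from the centre the share with any of the words stayed between 0.522% and 1.83%. Distal intronic sites held them in 12.6% (101 of 801), sites with AP-1 in 5.69% and promoter sites in 1.71%. In the 3 classes of distal sites, the 30 other windows held them in at most 2.84%. Whether reads from DNA of another species contributed to the sites with these words or with the tandem was not tested, since the list holds positions and no reads, and this limit also bears on the 7-base words and the second width peak.

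The GGAAT tandem was present in 19 members (2.48%, interval 1.59 to 3.84) and in neither flank of any. The shares were 0.250% in distal intronic sites (2 of 801), 0.474% in sites with AP-1 (1 of 211), 0.0634% in promoter sites (2 of 3154) and 0.0870% in genome windows. No member held both the tandem and an Alu-type word, and 90 (11.7%) held 1 or the other.

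Both kinds of words were unevenly spread over the widths. Of the 163 members of 340 to 380 bp, 37 (22.7%) held an Alu-type word, while 18 of the 272 members of 200 bp (6.62%), 15 of the 296 members over 200 and under 340 bp (5.07%) and 1 of the 35 wider members (2.86%) did. Distal intronic sites of 340 to 380 bp held them in 36.4% (59 of 162). The tandem was in 10 of the 163 members of 340 to 380 bp (6.13%) and in 5 of the 35 wider ones (14.3%), and in 2 members of each narrower class. The TEAD word was in 15.4%, 20.9%, 16.0% and 22.9% of members from the narrowest to the widest class. Members that held it without the tandem made up 14.7%, 20.3%, 9.82% and 8.57% of these classes. Members of 340 to 380 bp had more lower-case bases, with a median of 38.2% of the site against 14.8% at 200 bp and 16.1% between 200 and 340 bp. Without the sites of 340 to 380 bp no 7-base word was called and the TEAD word had an adjusted p of 0.0240 (exact McNemar test). What part repeated sequence had in the second width peak was not tested.

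**Figure D4:**
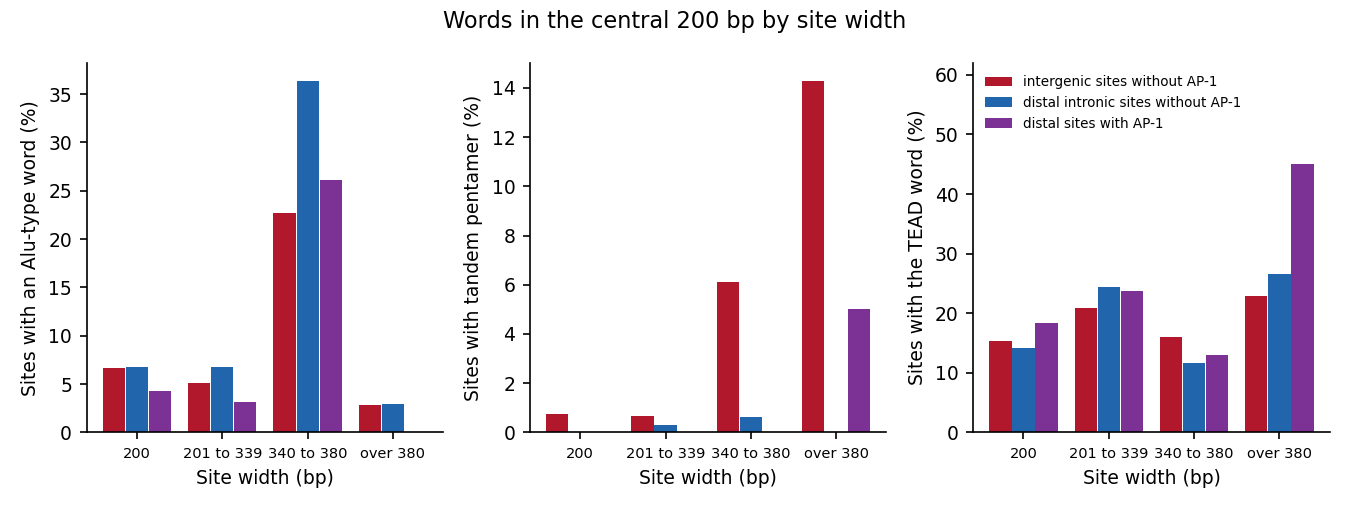
Share of sites (percent) with an Alu-type word, the tandem pentamer or the TEAD word in the central 200 bp by site width (bp) for 3 classes of distal ASH2L sites. Bars give shares of the sites of a class within each width range, those with the tandem included, and carry no error. In the members the Alu-type words stood at 22.7% from 340 to 380 bp and at 2.86% to 6.62% in the other widths.

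Most members lay in sequence that short reads can place. In 713 of 766 (93.1%) every 75-base word, the read length of the study, occurred once in the reference. Its unplaced sequences and mitochondrial genome were included. In 23 members (3.003%, interval 2.01 to 4.46) fewer than 90% of the words were single-copy. The share was 1.87% in distal intronic sites (15 of 801, adjusted p = 0.230, Fisher's exact test), 0 of 211 in sites with AP-1 (adjusted p = 0.0169) and 0.951% in promoter sites (adjusted p = 1.80e-04). On average 28.1% of a member's bases were in lower case, compared with 21.8% in distal intronic sites, 12.9% in sites with AP-1, 6.95% in promoter sites and 44.0% in genome windows. More than 50% of the bases were in lower case in 147 members (19.2%), and 155 had none.

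By chromosome the members ranged from 0.0138 to 1.02 per Mb of eligible intergenic sequence, with 0.636 over all. Chromosome 13 had 56 members (1.02 per Mb, 95% Poisson interval 0.769 to 1.32), chromosome 2 had 66 (0.867, interval 0.671 to 1.10) and chromosome X had 48 (0.472, interval 0.348 to 0.626). Chromosome 18 had 17 (0.393, interval 0.229 to 0.629), and chromosome Y had 1. The value without chromosome Y was 0.676 per Mb. The interval of chromosome 13 lay above both values and those of X, Y and 18 below both, while that of chromosome 2 lay above 0.636 and included 0.676. These intervals cover counting error only, and the depth of the libraries by chromosome is not known.

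**Figure D5:**
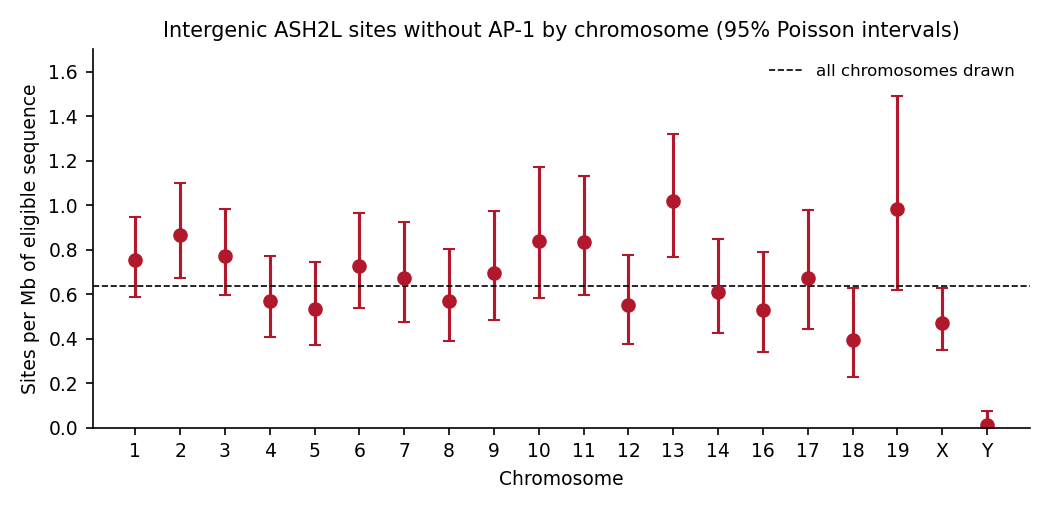
Members per Mb of eligible intergenic sequence on each chromosome, with 95% Poisson intervals, and the value of 0.636 over all chromosomes as a dashed line. Chromosome 13 was at 1.02 and chromosome X at 0.472.

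Of the members farthest from any TSS, chr4:29854830-29855186 near Epha7, a receptor of ephrins, was 338639 bp away, and chr14:107075169-107075522 near Trim52 was 309316 bp away and held the GGAAT tandem. The next were chr18:73181911-73182276 near Mex3c at 261004 bp, chr8:128025626-128025876 near Nrp1 at 252474 bp and chr2:47299746-47299945 near Acvr2a at 242138 bp. The last held an Alu-type word. Thus 2 of these 5 remote members carried repeat words, and 3 carried neither.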

How the data were processed

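Reads were trimmed by the authors (Trim Galore) and aligned with BWA to the mouse build mm10. Replicates were merged in Picard, and narrow peaks came from MACS2. The deposited list held chromosome, start and end of 6444 sites over all samples, with no value per library. Starts were read as counted from 0, since the smallest width is then 200 bp, and are printed counted from 1. The 16 sites outside the assembled chromosomes were left out. Gene annotation was GENCODE mouse release 21, and sequence and enhancer features were RefSeq GRCm38.p6, the build of the list. CpG islands were computed (at least 200 bp, GC over 50%, observed to expected CpG over 0.6). Whether peaks were called per sample or on merged samples is not visible in the list.

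Classes were compared by Fisher's exact test, and centres with their own flanks by exact binomial and McNemar tests, with Benjamini-Hochberg adjustment and a threshold of 0.05. The functions were tested on simulated data. Some genes of the lists and some sequences are not reported here. Sites and genes named were the widest, the most remote, those nearest the 3 kb limit, the densest stretches of 100 kb, the widest with the called motif, and the genes nearest to most members. The Alu-type words, the tandem pentamer, the width range, the sites shown for the tandem and single genes of the lists other than those with most members were chosen after their values were seen. The members and lists were chosen with earlier results of these data known. Alternatives changed the distance, chromosomes, widths, merging, gene types, windows, word length and thresholds. Wilson and Poisson intervals and the limit for a count of 0 (3 counts) cover counting error only. Tests ran in SciPy 1.17.1 under Python 3.11.15, with pandas 2.3.3 and NumPy 2.4.6, and plots were drawn in matplotlib 3.10.9.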

Additional observations from a re-analysis of the deposited data

Results flagged for a closer look

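The excluded stretches held sites that met every other criterion and entered no comparison of the report. They were added back only as an alternative, described with the processing. On chromosome 15 there were 96 such sites, 2.02 per Mb of eligible sequence, and on chromosome 10 from 100 to 130 Mb there were 68, 4.69 per Mb, against 0.636 per Mb for the members. Their median widths were 215 and 215.5 bp. An Alu-type word was present in 3 and 0 of them, the GGAAT tandem in 0 and 1, and GGAATG in 16 (16.7%) and 8 (11.8%). The copy number of these stretches in the cells was not tested.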

How the results depend on the processing

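The higher GC content at the centre and the single-copy comparison with distal intronic sites kept their direction and their side of the threshold where they were rerun. The odds ratio for the minimum width, 1.02 and past no threshold under any alternative, turned to 0.992 with protein-coding genes only, and to 0.963 without sites with Alu-type words and 0.989 without those or the tandem. Of 114 values under alternatives, 81 kept their direction and side of the threshold, or their count within 1.5 times, these 3 reversed, 23 counts moved further, 5 values no longer passed the threshold and 2 newly passed it. With sites wider than 200 bp only, 494 members were left and the comparison of minimum widths could not be made. Among sites farther than 10 kb from every TSS, the odds ratio for another site within 10 kb was 0.566 (adjusted p = 0.0916, Fisher's exact test), and 0 motifs and 0 words were called. With the excluded stretches kept, 4 motifs, 35 words and 1 gene list (olfactory receptors) were called, and the odds ratio for a promoter site at the nearest gene was 0.787 (adjusted p = 0.0484, same exact test), while a 3 kb promoter window gave 0.677 and the sites beyond 10 kb gave 0.940 (adjusted p = 0.871, same exact test). With protein-coding genes only, 4 motifs, 47 words, 1 motif against distal intronic sites (ZEB) and 1 gene list (mesenchymal factors) were called. Windows of 100 bp gave 4 words, flanks at 2 kb gave 0 motifs and 10 words, and the left flank gave 6 motifs.

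The following removals were chosen after seeing the data. Leaving out the GGAAT tandem gave 0 motifs. Leaving out the Alu-type words gave 0 words and 1 gene list, and leaving out both gave 0 motifs, 0 words and 1 gene list. Leaving out sites of 340 to 380 bp gave 2 motifs, 0 words and 2 gene lists. Each removal with a gene list called the mesenchymal list, with fewer members than distal intronic sites (17 against 38, 17 against 38 and 13 against 33). The last also called olfactory receptors (7 against 0). Fewer sites were tested in each removal. The Alu-type words came from called words, and sites with them or with the tandem were left out by what their centres held. The loss of word or TEAD calls was thus largely set by these removals, and its cause was not tested. No paired analysis was possible because the list carries no value per sample, and replicates could not be left out for the same reason. Peaks could not be filtered by strength.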

Other observations

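The AP-1 consensus was absent from the central 200 bp of the members by the rule, and 21 of the 766 held it elsewhere in the site. Among the members with the lowest share of single-copy words were chr2:9677995-9678194 near Gata3 (6%), chr3:12253164-12253487 near Ralyl (23.5%) and chr1:144677402-144677755 near Rgs18 (31.1%). In all, 4 members were below 50%, and these were chosen after their values were seen.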
